A study of Mus musculus with 6 samples.

Results

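The 10 genes described here (*Slc7a11*, *Gclc*, *Gclm*, *Gsr*, *Gpx2*, *Gsta4*, *Txnrd1*, *Srxn1*, *Nqo1* and *Hmox1*) are commonly counted among the antioxidant targets of the transcription factor NRF2. They were taken as a list of names and matched to the 47643 gene IDs of the count files through the GENCODE mouse annotation, and all 10 were found. The RNA came from organoids of the mouse submandibular salivary gland (mSGOs), epithelial structures that grow in Matrigel from dissociated gland cells of C57BL/6 mice aged 8 to 12 weeks. One group held organoids collected on day 5 and the other those collected on day 7, each with organoids of the same 3 mice, so that 6 libraries were compared. Both groups were non-irradiated and otherwise untreated, and both grew in WRY medium, a DMEM/F12-based medium with EGF, FGF2, insulin, N2, dexamethasone, the ROCK inhibitor Y27632 and conditioned medium that supplies R-spondin1 and Wnt3a. The libraries were made with a QuantSeq 3′ kit, which reads the end of each polyadenylated transcript. In such bulk libraries, fewer cells of a type and less RNA per cell cannot be told apart.

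NRF2, encoded by *Nfe2l2*, is held at a low level by KEAP1, which presents it to a CUL3 ubiquitin ligase for degradation. Oxidants and electrophiles modify KEAP1, after which NRF2 accumulates, pairs with a small MAF protein and binds antioxidant response elements near its target genes. BACH1 pairs with the same small MAF proteins and represses some of these genes, *Hmox1* among them. The targets supply glutathione, recycle thioredoxin and peroxiredoxins, and detoxify quinones, aldehydes and haem, and they are active in many epithelia at rest.

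Between day 5 and day 7 the genes did not all move in the same direction. *Slc7a11*, the cystine importer that feeds glutathione synthesis, fell 4.16-fold, *Nqo1*, a quinone reductase, fell 2.41-fold, and *Hmox1*, the inducible haem oxygenase, rose 3.64-fold. The other 7 genes did not pass the threshold, which was an adjusted p under 0.05 in the edgeR quasi-likelihood test and an absolute log2 fold change over 0.6. Thus 3 of 10 genes passed, against 12.0% of the 15792 genes tested. In each direction, 1 was higher at day 7 (7.22% of all genes) and 2 were lower (4.82%). In 4 of 10 the 3 libraries of one day did not overlap those of the other, against 31.0% of all genes, 1 of them higher at day 7 (15.4% of all genes) and 3 lower (15.5%). An unadjusted p under 0.05 was found for 4 of 10, against 25.8% of all genes. The median log2 fold change of the list was -0.20, and that of all genes was -0.01. It was negative for every member except *Hmox1* and *Gsr*, mostly without passing the threshold. Summed over the list, the level was 2835.2 to 3353.4 CPM at day 5 and 2226.5 to 2745.4 CPM at day 7. All 10 genes were well above the filter on low counts, with 29 to 2534 counts per library.

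**Figure D1:**
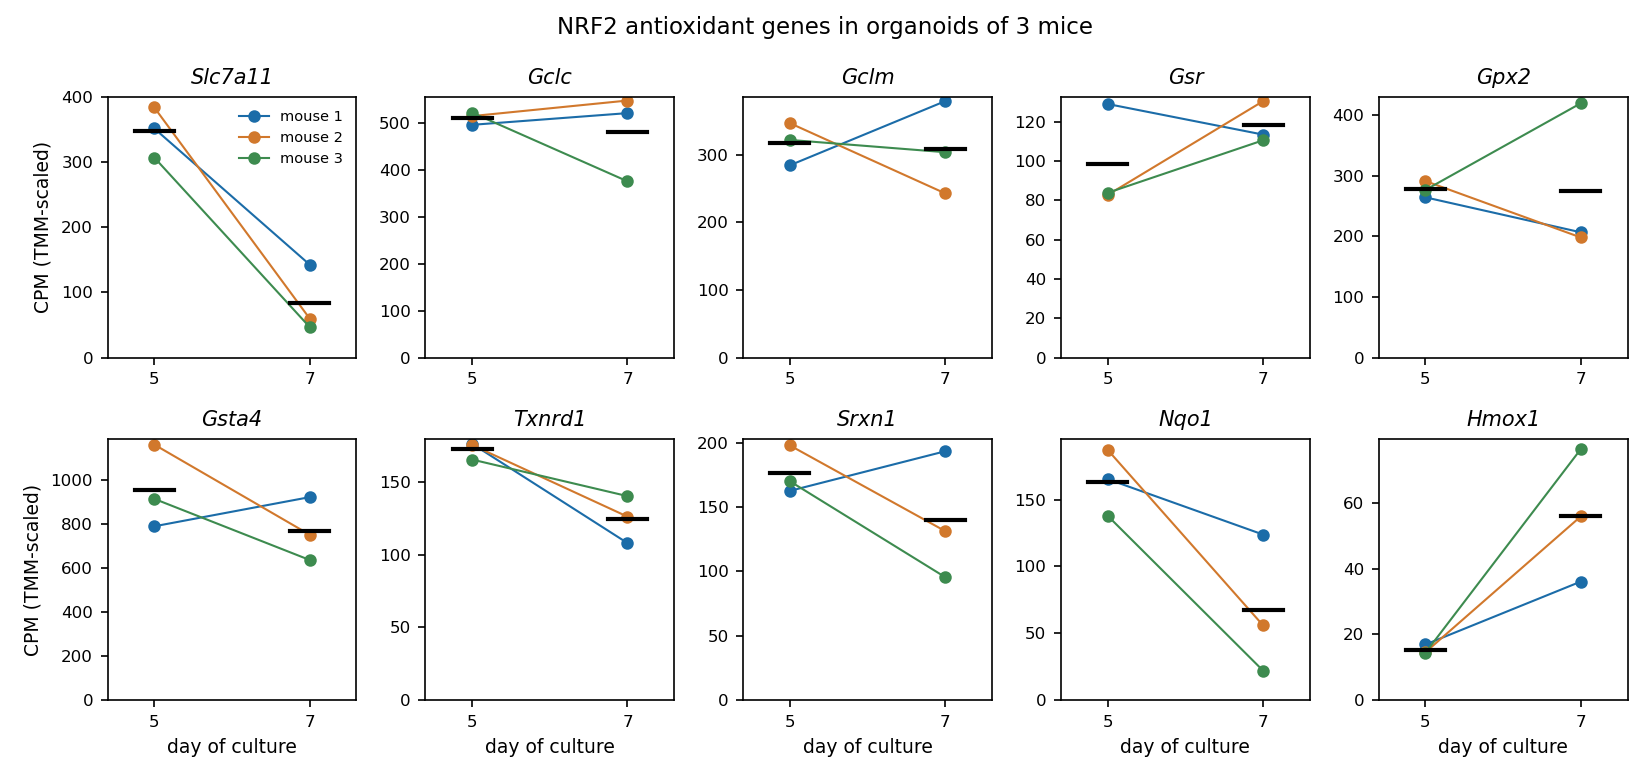
Level of each gene in CPM, counts scaled to a common library size (vertical axis, from 0) against the day of culture (horizontal axis), with 1 coloured point per library, a line joining the libraries of 1 mouse and a black bar at the mean of each day. *Slc7a11* and *Nqo1* fell and *Hmox1* rose in all 3 mice, with no overlap between the days, and the lines of *Gclc*, *Gclm*, *Gsr*, *Gpx2*, *Gsta4* and *Srxn1* ran in both directions.

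The DNA upstream of the start sites was read to show what the genes share. Positions and sequences are those of the mouse genome GRCm39, with start sites from GENCODE vM39, and all sequences are written 5′ to 3′ on the strand of the gene. The start was that of the Ensembl canonical transcript of each gene, and no windows were placed at other annotated starts. For the 2 genes that fell past the threshold, the 250 bases before the start are shown, with capitals for any match to the motifs searched.
*Slc7a11*, chr3:50398064-50398313 (minus strand): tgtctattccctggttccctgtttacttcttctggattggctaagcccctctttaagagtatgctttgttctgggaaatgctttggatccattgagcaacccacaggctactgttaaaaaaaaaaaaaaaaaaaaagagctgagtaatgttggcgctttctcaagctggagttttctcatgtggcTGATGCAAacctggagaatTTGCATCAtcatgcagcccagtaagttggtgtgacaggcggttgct
*Nqo1*, chr8:108129935-108130184 (minus strand): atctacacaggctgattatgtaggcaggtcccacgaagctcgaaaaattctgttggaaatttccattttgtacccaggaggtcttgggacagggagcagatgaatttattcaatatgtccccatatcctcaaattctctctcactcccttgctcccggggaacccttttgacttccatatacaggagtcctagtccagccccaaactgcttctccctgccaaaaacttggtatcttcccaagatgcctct
The window from 250 bases before to 50 bases after the start was searched on both strands in all 21092 protein-coding genes. The letters TGACNNNGC, the core of the antioxidant response element, were present in 3 of 10 members (*Gclm*, *Srxn1* and *Txnrd1*) and in 12.5% of all promoters. They were absent from the windows of all other members, among them *Slc7a11* and *Nqo1*, which fell, and *Hmox1*, which rose. With 1000 bases before the start, 5 of 10 members held them (*Gsr* and *Slc7a11* in addition) against 30.5% of all promoters. The letters TGACTCA, bound by AP-1, were in the shorter window of *Srxn1* and *Gsta4* (4.69% of all promoters), and TGACTCAGC was in none of the 10 (0.403%). The motifs TGAGTCAGC and TGATGCAA were added after the sequences had been seen. TGAGTCAGC, which holds TGACTCA on its other strand, was again in *Srxn1* and *Gsta4* (0.346% of all promoters). It reads TGAG where TGACNNNGC reads TGAC and otherwise fits those letters, so *Gsta4* held a near match to the core without counting as a match. TGATGCAA, the core of the amino acid response element bound by ATF4 with a C/EBP protein, was in *Slc7a11* alone among the 10 (0.977% of all promoters). It occurred there once on each strand, 65 and 46 bases before the start, and both copies are in capitals in the *Slc7a11* sequence. For members outside the threshold, 1 match each is shown with its flanks, TGACNNNGC on the other strand in *Gclm* and *Txnrd1* and TGAGTCAGC in *Srxn1* and *Gsta4*.
*Gclm*, chr3:122039057-122039095 (plus strand): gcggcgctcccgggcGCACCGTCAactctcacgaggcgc
*Txnrd1*, chr10:82694933-82694971 (plus strand): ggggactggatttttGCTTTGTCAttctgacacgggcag
*Srxn1*, chr2:151947384-151947422 (plus strand): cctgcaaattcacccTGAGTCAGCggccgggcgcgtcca
*Gsta4*, chr9:78099128-78099166 (plus strand): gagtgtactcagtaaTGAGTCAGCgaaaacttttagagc
A match describes the letters of the DNA and does not show that a protein binds there. An absence holds only for the windows and exact letters searched. Sites further from the start or with other letters were not looked for, so it does not show that a gene lacks a response element.

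Cystine import and glutathione synthesis came first in the comparison. *Slc7a11* (ENSMUSG00000027737, chr3:49846975-50398070, minus strand) encodes the light chain of the exchanger that takes up cystine and releases glutamate. Its level was 351, 384 and 307 CPM at day 5 in mice 1, 2 and 3, and 143, 60.0 and 47.0 CPM at day 7. All day 7 libraries lay below all day 5 libraries, and mouse 1 kept the highest level at day 7. The log2 fold change was -2.05 ± 0.30 (SE, n = 3 per day), with a 95% interval from -2.69 to -1.42 and an adjusted p of 0.000207 in edgeR. It ranked 20 by p among the 761 genes that fell. The threshold was passed in all 19 alternatives (log2 fold changes from -2.69, without mouse 1 at day 7, to -1.78). *Slc3a2*, which encodes the heavy chain of the same exchanger, did not pass, with a log2 fold change of 0.30 and an adjusted p of 0.366 in edgeR. Its levels were 152, 170.2 and 170 CPM at day 5 and 239, 217 and 149 CPM at day 7.

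*Gclc* (ENSMUSG00000032350, chr9:77661797-77701770, plus strand) and *Gclm* (ENSMUSG00000028124, chr3:122039126-122065061, plus strand) encode the catalytic and the modifier subunit of glutamate-cysteine ligase, the rate-limiting enzyme of glutathione synthesis. *Gclc* was measured at 497, 516 and 523 CPM at day 5 and at 522, 549 and 376 CPM at day 7. Its log2 fold change was -0.08 ± 0.19, with a 95% interval from -0.49 to 0.32 and an adjusted p of 0.829 in edgeR. The days overlapped, and only mouse 3 was lower at day 7 than at day 5. *Gclm* was measured at 284, 346 and 322 CPM at day 5 and at 379, 243 and 303 CPM at day 7. Its log2 fold change was -0.04 ± 0.20, with a 95% interval from -0.46 to 0.38 and an adjusted p of 0.940 in edgeR. Mouse 1 was higher and mice 2 and 3 lower at day 7, so neither ligase subunit passed the threshold in the direction of *Slc7a11*.

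*Gsr* (ENSMUSG00000031584, chr8:34142551-34188192, plus strand) encodes glutathione reductase, which returns oxidised glutathione to its reduced form. Its level was 129, 82.8 and 83.9 CPM at day 5 and 114, 131 and 111 CPM at day 7. In edgeR the log2 fold change of *Gsr* was 0.26 ± 0.21, with a 95% interval from -0.18 to 0.70 and an adjusted p of 0.459. Mouse 1 at day 5 stood above the other day 5 libraries and within the range of day 7.

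The members of the list that spend glutathione, *Gpx2* and *Gsta4*, did not pass the threshold. *Gpx2* (ENSMUSG00000042808, chr12:76839107-76842326, minus strand) encodes a selenium-dependent glutathione peroxidase of epithelia that reduces hydroperoxides. It was measured at 264, 291 and 277 CPM at day 5 and at 207, 198 and 419 CPM at day 7. The day 7 libraries lay on both sides of the day 5 values, with mouse 3 the highest of all. For *Gpx2* the log2 fold change was -0.02 ± 0.24, with a 95% interval from -0.53 to 0.50 and an adjusted p of 0.990 in edgeR. Without mouse 3 at day 7 it was -0.45 with an adjusted p of 0.0282, which did not reach the minimum fold change. *Gsta4* (ENSMUSG00000032348, chr9:78090056-78117763, plus strand) encodes a glutathione transferase that conjugates lipid aldehydes such as hydroxynonenal. Its level was 788, 1159 and 913 CPM at day 5 and 920.4, 750.1 and 635 CPM at day 7. Mouse 1 was higher and mice 2 and 3 were lower at day 7. For *Gsta4* the log2 fold change was -0.31 ± 0.20, with a 95% interval from -0.74 to 0.12 and an adjusted p of 0.363 in edgeR.

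*Txnrd1* (ENSMUSG00000020250, chr10:82669785-82733546, plus strand) encodes the cytosolic thioredoxin reductase, which keeps thioredoxin reduced at the expense of NADPH. It was measured at 177, 176 and 166 CPM at day 5 and at 108, 126 and 140.5 CPM at day 7. All 3 day 7 libraries lay below those of day 5. The log2 fold change was -0.47 ± 0.19, with a 95% interval from -0.86 to -0.07, an unadjusted p of 0.0221 and an adjusted p of 0.113 in edgeR, so it did not pass. *Srxn1* (ENSMUSG00000032802, chr2:151947436-151957687, plus strand) encodes sulfiredoxin, which repairs overoxidised peroxiredoxins. Its level was 162, 198 and 170.0 CPM at day 5 and 193, 131 and 95.4 CPM at day 7. Mouse 1 was higher and mice 2 and 3 were lower at day 7. For *Srxn1* the log2 fold change was -0.33 ± 0.23, with a 95% interval from -0.81 to 0.15 and an adjusted p of 0.374 in edgeR. Without mouse 1 at day 7 it passed, with a log2 fold change of -0.64 and an adjusted p of 0.0370.

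*Nqo1* (ENSMUSG00000003849, chr8:108113835-108129934, minus strand) encodes a reductase that turns quinones into hydroquinones without a radical intermediate and is widely used as a readout of NRF2 activity. Its level was 165, 187 and 138 CPM at day 5 and 124, 55.9 and 22.0 CPM at day 7. The days did not overlap, but the day 7 libraries differed 5.62-fold among themselves, from mouse 1 at the top to mouse 3 at the bottom. The log2 fold change was -1.27 ± 0.37, with a 95% interval from -2.04 to -0.50 and an adjusted p of 0.0295 in edgeR. The gene passed in 10 of 19 alternatives, whose adjusted p ran from 2.15e-08 to 0.283. Among the fits with 1 library fewer it was lost without mouse 1 (-1.26, adjusted p = 0.109 in edgeR), mouse 2 (-1.16, 0.158) or mouse 3 (-1.38, 0.0712) at day 5 and without mouse 2 at day 7 (-1.15, 0.163). It was -2.04 without mouse 1 and -0.87 without mouse 3 at day 7, past the threshold both times.

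*Hmox1* (ENSMUSG00000005413, chr8:75820241-75827217, plus strand) encodes the haem oxygenase that cleaves haem to biliverdin, iron and carbon monoxide. It was measured at 16.9, 14.6 and 14.4 CPM at day 5 and at 36.0, 55.9 and 76.4 CPM at day 7. Every day 7 library was above every day 5 library, and mouse 3, the lowest for *Nqo1* and *Slc7a11* at day 7, was the highest for *Hmox1*. The log2 fold change was 1.87 ± 0.28, with a 95% interval from 1.28 to 2.45 and an adjusted p of 0.000235 in edgeR. These values rest on 110 counts at day 5 and 411 counts at day 7, and *Hmox1* passed in all 19 alternatives (1.59 to 2.10). Macrophages are a well known source of *Hmox1*. Of 12 macrophage markers, 9 had 0 counts in all libraries, among them *Adgre1*, *Csf1r* and *C1qa*. The summed level of the 12 was 8.03 to 10.7 CPM at day 5 and 9.30 to 13.9 CPM at day 7. Counts allowed a test of 2 markers. *Cd68*, a lysosomal glycoprotein also found outside macrophages, rose from 7 counts at day 5 to 39 at day 7 (log2 fold change 2.36, adjusted p = 0.0151 in edgeR). *Cd14*, which made up most of the summed level at day 5, went from 59 counts to 45 and did not pass (-0.48, adjusted p = 0.471 in edgeR). The part of such cells in the *Hmox1* result was not tested.

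**Figure D2:**
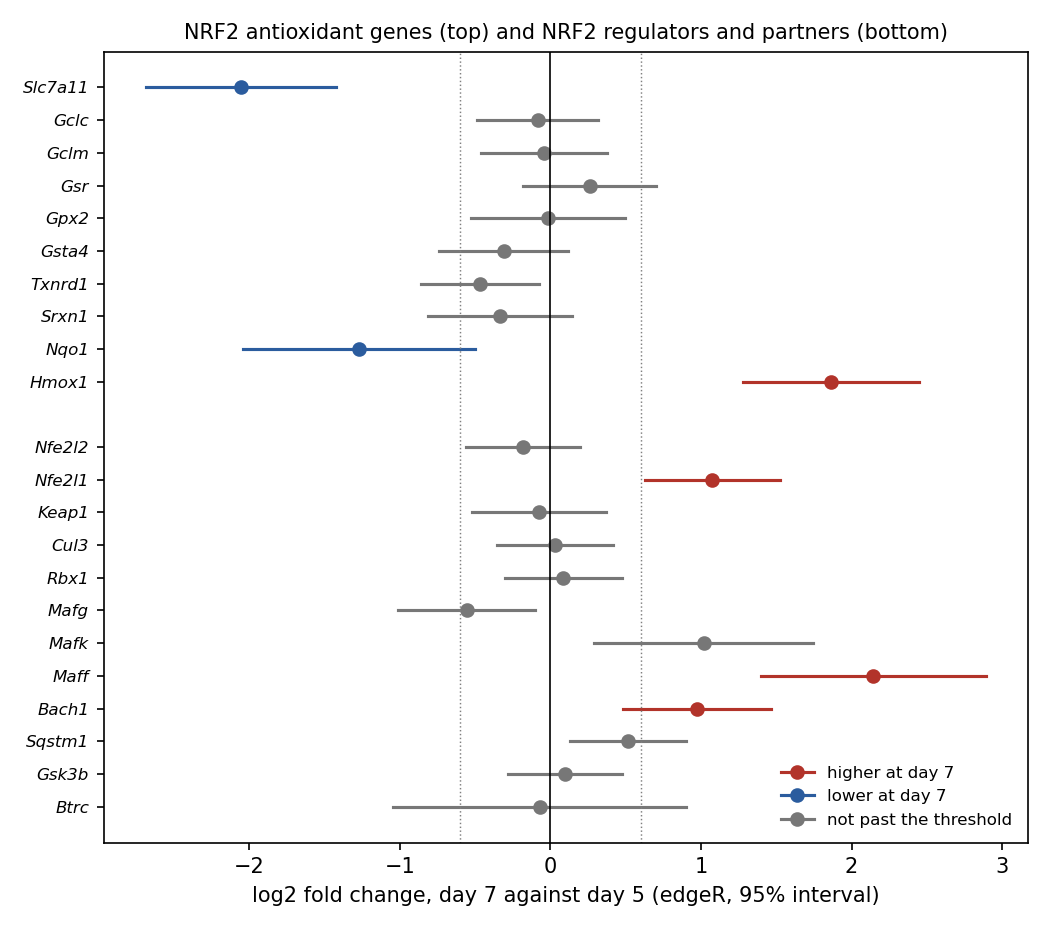
Log2 fold change of day 7 against day 5 (horizontal axis) for the NRF2 antioxidant genes (upper block) and the NRF2 regulators and partners (lower block), with points for the edgeR estimates, bars for 95% intervals and dotted lines at the minimum fold change of 0.6 in each direction. *Slc7a11* at -2.05 and *Nqo1* at -1.27 lie left of the lines, and *Hmox1* at 1.87, *Maff* at 2.14, *Nfe2l1* at 1.07 and *Bach1* at 0.98 lie right of them and passed the test.

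Of 12 regulators and partners tested, 3 rose, 0 fell (7.22% and 4.82% of all genes) and 9 did not pass, with a median log2 fold change of 0.09. *Nfe2l2* itself was measured at 411, 381 and 390.0 CPM at day 5 and at 316, 335 and 390.1 CPM at day 7. Its log2 fold change was -0.18 ± 0.18, with an adjusted p of 0.565 in edgeR. *Keap1* had a log2 fold change of -0.08 ± 0.21 (adjusted p = 0.869 in edgeR). The ligase parts *Cul3* and *Rbx1*, and *Gsk3b* and *Btrc*, which act in a KEAP1-independent route of NRF2 degradation, lay between -0.07 and 0.10. NRF2 is controlled largely at the level of the protein, which these libraries do not measure.

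Among the proteins that share DNA sites with NRF2, *Maff*, a small MAF partner, rose from 7.01, 3.01 and 6.48 CPM at day 5 to 24.5, 33.7 and 16.2 CPM at day 7. Its log2 fold change was 2.14 ± 0.36, with an adjusted p of 0.000579 in edgeR. The other small MAF genes did not pass, *Mafk* with 1.02 ± 0.35 (adjusted p = 0.0641 in edgeR) and *Mafg* with -0.56 ± 0.22 (adjusted p = 0.103). *Mafg* was the most abundant of these small MAF genes, at 194, 168 and 171 CPM at day 5 and 128, 151 and 82.7 CPM at day 7. Its days did not overlap, with day 7 lower. *Mafk* had means of 5.42 CPM at day 5 and 11.1 CPM at day 7. With the mouse as a block in the edgeR fit, *Mafk* passed (1.03, adjusted p = 0.0385), as it did without mouse 3 at day 7 (1.09, adjusted p = 0.0306), and its adjusted p ran from 0.0306 to 0.237 over the alternatives. *Bach1*, the repressor, rose from 43.7, 37.1 and 34.9 CPM at day 5 to 62.9, 63.5 and 102 CPM at day 7. Its log2 fold change was 0.98 ± 0.23, with an adjusted p of 0.00954 in edgeR. It did not pass without mouse 2 (0.95, adjusted p = 0.0782) or mouse 3 (0.91, adjusted p = 0.0860) at day 5. *Nfe2l1*, which encodes a related factor known for driving proteasome genes, rose from 68.5, 53.2 and 52.2 CPM to 98.6, 119 and 149 CPM. Its log2 fold change was 1.07 ± 0.21, with an adjusted p of 0.00258 in edgeR. *Sqstm1*, whose product p62 can capture KEAP1, was higher in all 3 day 7 libraries without passing (0.51 ± 0.18, adjusted p = 0.0774 in edgeR).

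**Figure D3:**
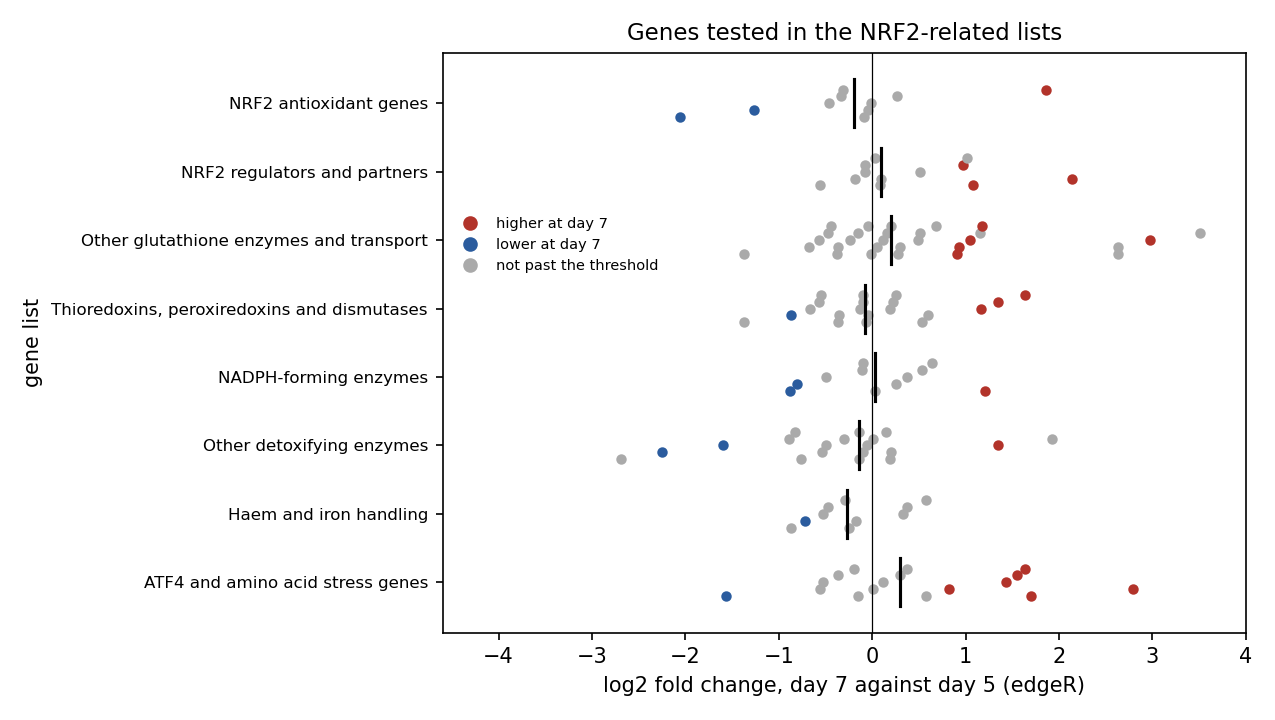
Log2 fold change of day 7 against day 5 (horizontal axis) for every tested gene of the NRF2 antioxidant genes and 7 related lists (vertical axis), with 1 point per gene, coloured by whether it was past the threshold, and a black bar at the median of each list. The medians lie between -0.27 for haem and iron handling and 0.30 for the ATF4 list, and in most lists the genes past the threshold lie on both sides of 0.

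Of 29 glutathione genes tested outside the 10 members, 5 rose and 0 fell (7.22% and 4.82% of all genes), and the median log2 fold change was 0.20 (0.16 when a gene with no count on a day took a bound of 3 counts there, or, for 2 genes with at most 3 counts in all, was left out). *Glrx*, a glutaredoxin that reduces mixed disulfides with glutathione, rose from 9.07, 13.6 and 13.7 CPM to 98.2, 124 and 62.6 CPM, a log2 fold change of 2.97 ± 0.28 (adjusted p = 2.09e-06 in edgeR). *Gsto1*, an omega-class glutathione transferase, rose by 1.05 ± 0.23 on the log2 scale (adjusted p = 0.00545), and *Gstm4*, a mu-class transferase, by 1.18 ± 0.28 (adjusted p = 0.00963). The other 2 were the mu-class genes *Gstm1* (0.91) and *Gstm5* (0.93), named after their values had been seen. *Gsto1* did not pass without mouse 1 (0.97) or mouse 3 (1.04) at day 5, nor *Gstm4* without mouse 1 at day 5 (0.94). The count of the list was 1 without mouse 1 and 2 without mouse 3 at day 5, and 9 without mouse 1 at day 7. Of the 500 bases compared at the 3′ end, *Gpx4* and *Gsta1* share 499 with other loci, and *Gstp1* and *Gstp2* share 437. The counts of these genes, which did not pass, are uncertain.

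Of 20 tested thioredoxin, peroxiredoxin, sestrin and dismutase genes, 3 rose and 1 fell (7.22% and 4.82% of all genes), with a median log2 fold change of -0.08. *Sesn2*, a stress-induced sestrin, rose from 17.3, 23.1 and 28.1 CPM to 50.6, 77.4 and 86.1 CPM (log2 fold change 1.64 ± 0.26, adjusted p = 0.000356 in edgeR) and passed in all alternatives. *Txnip*, which binds and inhibits thioredoxin, rose by 1.35 ± 0.37 on the log2 scale (adjusted p = 0.0214) and *Sesn1* by 1.16 ± 0.37 (adjusted p = 0.0460), but the days overlapped in both. *Prdx4*, the peroxiredoxin of the endoplasmic reticulum, changed by -0.87 ± 0.26 (adjusted p = 0.0356) with no overlap. *Txnip* passed in 12, *Prdx4* in 12 and *Sesn1* in 7 of 19 alternatives. None of these 3 passed without mouse 2 at day 5 (1.14, -0.77 and 1.51, in the order *Txnip*, *Prdx4*, *Sesn1*), without mouse 3 at day 5 (1.28, -0.97 and 1.18) or without mouse 2 at day 7 (0.84, -0.85 and 0.99). *Prdx4* and *Sesn1* were also lost without mouse 1 at day 5 (-0.86 and 0.84), and *Sesn1* without mouse 3 at day 7 (1.00). Adding the mouse as a block gave 7 genes of the list past the threshold, leaving out mouse 1 at day 7 gave 7, and the count was 2 without mouse 1, 1 without mouse 2 and 1 without mouse 3 at day 5, and 1 without mouse 2 at day 7.

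A list of 11 genes held NADPH-forming enzymes and other enzymes of the pentose phosphate pathway. Of these, 1 rose and 2 fell (7.22% and 4.82% of all genes), with a median log2 fold change of 0.03. *Pgd*, phosphogluconate dehydrogenase, changed from 280.4, 325 and 286 CPM to 178, 145 and 187 CPM (log2 fold change -0.80 ± 0.19, adjusted p = 0.00809 in edgeR). *Mthfd1*, a cytosolic folate enzyme, changed by -0.88 ± 0.23 (adjusted p = 0.0178), and *Pgls*, a lactonase of the pentose phosphate pathway, rose by 1.20 ± 0.31 (adjusted p = 0.0152). The rise of *Pgls* was carried by mouse 3, at 417 CPM against 138 and 158 CPM in the other day 7 libraries, and without that library it was 0.52. *Pgls* did not pass without mouse 1 (1.14), mouse 2 (1.18) or mouse 3 (1.29) at day 5 either. *Mthfd1* was lost without any 1 of the day 5 libraries (-0.93, -0.85 and -0.86 without mice 1, 2 and 3), and *Pgd* without mouse 2 (-0.73) or mouse 3 (-0.83) at day 5. The list then had 1, 0 and 0 genes past the threshold without mice 1, 2 and 3 at day 5, and 2 without mouse 3 at day 7.

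A further list held 19 tested genes of detoxification and the oxidative stress response, not all of them enzymes. Of these, 1 rose and 2 fell (7.22% and 4.82% of all genes), with a median log2 fold change of -0.15. *Aldh3a1*, an aldehyde dehydrogenase, fell from 319, 354 and 299 CPM to 94.3, 161 and 64.6 CPM, with a log2 fold change of -1.60 ± 0.26 (adjusted p = 0.000453 in edgeR). *Osgin1*, named for its induction by oxidative stress, rose from 8.66, 10.5 and 13.3 CPM to 24.9, 33.0 and 25.5 CPM, with a log2 fold change of 1.35 ± 0.28 (adjusted p = 0.00339). Both passed in all 19 alternatives. *Ugt1a7c*, a glucuronosyltransferase, changed by -2.26 ± 0.66 (adjusted p = 0.0323), on 24 counts at day 5 and 5 at day 7. Its 3′ end is shared with other *Ugt1a* genes over all 500 bases compared, so its counts are uncertain, and it passed in 9 of 17 alternatives. It was lost without mouse 1 (-2.36), mouse 2 (-2.03) or mouse 3 (-2.37) at day 5 and without mouse 1 (-1.98) or mouse 2 (-2.29) at day 7. The count of the list was 2 without any 1 of the day 5 libraries or mouse 2 at day 7.

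Of 10 other haem and iron genes, 0 rose and 1 fell (7.22% and 4.82% of all genes), with a median log2 fold change of -0.27. *Tfrc*, the transferrin receptor, changed from 143, 158.1 and 158.1 CPM to 124, 74.6 and 80.8 CPM, with a log2 fold change of -0.72 ± 0.21 (adjusted p = 0.0339 in edgeR). It did not pass without mouse 1 (-0.77), mouse 2 (-0.69) or mouse 3 (-0.69) at day 5, or without mouse 2 at day 7 (-0.58), and the list then had 0 genes past the threshold. The list had 4 without mouse 1 and 2 without mouse 3 at day 7, and 2 with the mouse as a block. The ferritin genes *Fth1* and *Ftl1*, named after their values had been seen, had log2 fold changes of -0.29 (adjusted p = 0.366) and -0.87 (adjusted p = 0.0926), and *Ftl1* shares 461 bases of its 3′ end with a pseudogene.

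*Slc7a11* and *Sesn2* are also known targets of ATF4, the factor that turns on amino acid and stress genes. In the list of 17 ATF4 and amino acid stress genes, 6 rose and 1 fell (7.22% and 4.82% of all genes), and the median log2 fold change was 0.30. *Atf4* rose from 393, 490 and 456 CPM to 777, 1232 and 1604 CPM, with a log2 fold change of 1.43 ± 0.23 (adjusted p = 0.000505 in edgeR). *Trib3*, a pseudokinase induced by ATF4, rose from 0.825, 4.02 and 1.80 CPM to 10.4, 13.5 and 21.5 CPM, with a log2 fold change of 2.79 ± 0.47 (adjusted p = 0.000629). With *Sesn2*, the risers were *Ddit3* (1.70), *Chac1* (1.55), whose product degrades glutathione, and *Cebpb* (0.82), these 3 named after their values had been seen. *Slc7a11* thus moved opposite to these genes, and *Phgdh*, the enzyme that opens serine synthesis, fell too (-1.57 ± 0.35, adjusted p = 0.00658), though not past the threshold without mouse 1 at day 5 (-1.31, adjusted p = 0.0748). *Asns*, asparagine synthetase, had a log2 fold change of -0.53 and did not pass (adjusted p = 0.20 in edgeR), although the days did not overlap.

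The 7-day organoids were less alike than the 5-day organoids. The coefficient of variation between the 3 libraries of a day had a median over the 10 genes of 10.2% at day 5 and 28.8% at day 7, and it was larger at day 7 in 8 of 10. The exceptions were *Gsr* and *Gsta4*. Over all genes, the biological coefficient of variation estimated by edgeR was 0.0900 at day 5 and 0.290 at day 7. At day 7, mouse 3 was the lowest library for 6 of 10 genes and mouse 1 the highest for 5 of 10.

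**Figure D4:**
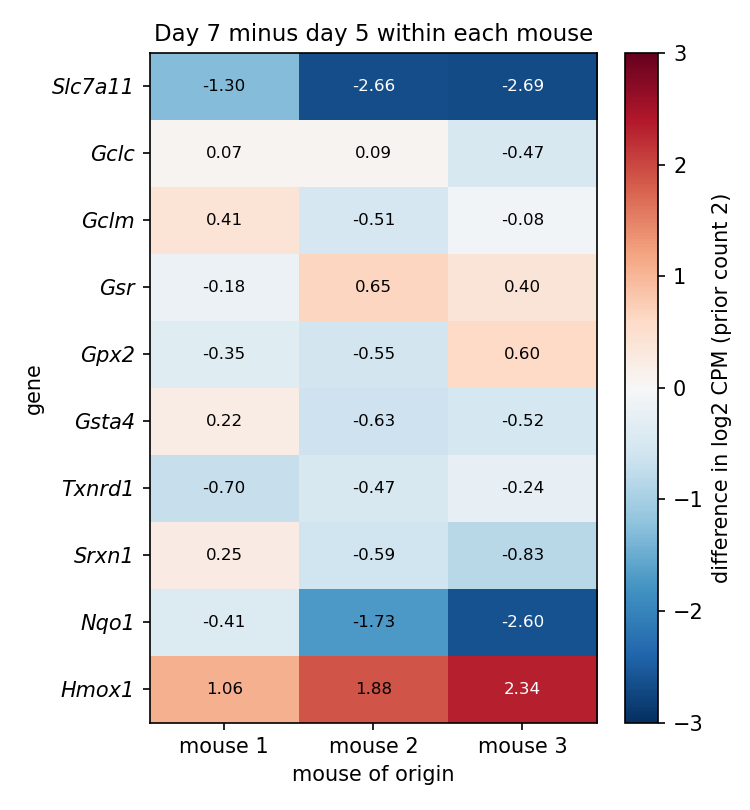
Difference in log2 CPM between day 7 and day 5 within each mouse (columns) for each gene (rows), printed in the cells and shown by colour from blue (lower at day 7) to red (higher at day 7). *Slc7a11*, *Nqo1* and *Txnrd1* were lower and *Hmox1* was higher in all 3 mice, and *Srxn1*, *Gsta4* and *Gclm* were higher in mouse 1 and lower in mice 2 and 3.

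Within mice, the day 7 minus day 5 difference of *Nqo1* in log2 CPM was -0.41, -1.73 and -2.60 in mice 1, 2 and 3, that of *Slc7a11* was -1.30, -2.66 and -2.69, and that of *Hmox1* was 1.06, 1.88 and 2.34. Mouse 1 thus had the smallest difference for each of the 3 genes. *Txnrd1* ran the other way, with -0.70, -0.47 and -0.24. As a description over the 6 libraries, after the mean of each day was taken off, *Nqo1* varied with *Srxn1* (Pearson r = 0.973) and *Slc7a11* (r = 0.940) and against *Hmox1* (r = -0.944), while *Hmox1* varied with *Txnrd1* (r = 0.976). These points share their libraries and are dominated by the wider spread at day 7.

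The genes most like the mean pattern of the 10 members were looked for among 8047 named genes whose mean level was 10 CPM or more. Over the log2 CPM of the 6 libraries these were *Vps29* (r = 0.997), *Asns* (0.995), *Hmgcs1* (0.990), *Bri3bp* (0.986) and *Adk* (0.985). *Hmgcs1*, an enzyme of cholesterol synthesis, had a mean of 744 CPM at day 5 and 575 CPM at day 7. For the deviations from the day means the closest genes were *Lancl3* (0.998), *Prelid1* (0.996), *Dnph1* (0.994), *Lbr* (0.992) and *Snrpd1* (0.992). Not every member followed this mean. Over log2 CPM, *Hmox1* (-0.91), *Gsr* (-0.49) and *Gpx2* (-0.26) ran against it, and the others lay from 0.46 (*Txnrd1*) to 0.96 (*Nqo1*). For the deviations, *Hmox1* (-0.80), *Txnrd1* (-0.685), *Gpx2* (-0.53) and *Gsr* (-0.05) were negative, and the others lay from 0.49 (*Gclc*) to 0.93 (*Slc7a11*). With 6 libraries and this many genes searched, high values are found for many genes.

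The libraries held 1918198 to 2837397 counts in genes, so that 3 counts, the limit that a count of 0 allows, equal 1.06 to 1.56 CPM. Summed epithelial markers lay at 14790 to 18485 CPM at day 5 and 11936 to 16489 CPM at day 7, mostly from *Krt5* and *Krt14*. *Krt8*, a keratin of luminal duct cells, was the 1 of these 10 past the threshold (log2 fold change -0.65, adjusted p = 0.0374 in edgeR). The luminal keratins *Krt7* (0.52, adjusted p = 0.140 in edgeR) and *Krt18* (0.16, adjusted p = 0.765) had positive log2 fold changes and did not pass. Endothelial markers summed to 12.2 to 14.1 CPM at day 5 and 13.9 to 27.4 CPM at day 7, with *Cdh5* and *Tek* at 0 counts. Fibroblast markers summed to 63.8 to 111 CPM and 102 to 128 CPM, mostly from *Vim*, with *Col1a2*, *Col3a1*, *Lum* and *Dpt* at 0 counts, and no endothelial or fibroblast marker passed the threshold. Some members share sequence with other loci in GENCODE vM39, which could move reads between them. Counted over shared runs of at least 50 bases, the last 500 bases of *Gpx2* hold 140 bases also found in *Gpx2-ps1*. Those of *Nqo1* hold 62 bases also found in *Gm59634*. *Gclm* overlaps *Gm6061* and *Gsr* overlaps *Gm24727* on the same strand, and *Srxn1* overlaps an antisense gene, whose reads can be told apart only if the counting used strand. No such overlap or shared run of at least 50 bases was found for *Slc7a11*, *Hmox1*, *Gclc*, *Gsta4* or *Txnrd1*.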

How the data were processed

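The deposited files hold raw read counts per Ensembl gene ID, which the authors aligned to GRCm39 and analysed with edgeR, per the labels. The aligner, annotation release and strand setting are not given in the sources used here. The 5 closing entries of each file name no gene and were left out. They held 13.7% to 14.4% of reads at day 5 and 9.12% to 9.74% at day 7. IDs were matched to GENCODE vM39 (43465 of 47643, 91.2%), and unmatched IDs stayed in the tests.

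A gene was tested if 2 or more libraries held 1 count or more of it (15792 of 18687 genes with any count). These were fitted in edgeR 4.0.16 (R 4.3.3) with TMM scaling and the two-sided quasi-likelihood F test, with day as the only term. Adjustment was by Benjamini-Hochberg over all 15792. To pass, a gene needed an adjusted p below 0.05 and a log2 fold change beyond 0.6 in either direction. The tool, the filter and these thresholds are those of the study's methods, and the scaling, the test and the day term were chosen here. The SE is the absolute log2 fold change divided by the square root of F, and the 95% interval uses the degrees of freedom of the fit. CPM are counts per 1000000 of the TMM-scaled library size, and a prior count of 2 was added for log2 CPM.

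The members and gene lists were chosen with earlier results of these data known. Named were all 10 members, 12 regulators and partners, and up to 3 genes per direction with the smallest p of each other list. The 5 genes closest in pattern by each of 2 measures were named too. *Slc3a2* and single cell type markers were named outside this rule, and other exceptions are stated. Akr1b3 was not matched. Same-numbered libraries come from the same mouse and so are paired. Their deviations from the day means correlated at 0.138, -0.100 and 0.164 over 8176 genes for mice 1, 2 and 3. No libraries of a day agreed within sampling noise (chi-square per degree of freedom from 1.99 to 19.9). Alternatives changed the scaling, the filter, the test (DESeq2 1.42.0, limma 3.58.1 voom with day weights, robust = TRUE), the depth, the minimum fold change, the most abundant gene ID and the mouse block, and left out each library in turn. The alternative without a minimum fold change reuses the reported fit, so every gene past the threshold passes it by construction. The limit of 3 counts for a count of 0 covers counting error only.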

Additional observations from a re-analysis of the deposited data

How the results depend on the processing

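Of the 3 members past the threshold, *Slc7a11* and *Hmox1* passed under all 19 alternatives and *Nqo1* under 10. *Nqo1* was lost with filterByExpr (-1.27, adjusted p = 0.0770), a mean count of at least 10 (-1.27, adjusted p = 0.0775), DESeq2 (-1.28, adjusted p = 0.219), robust = TRUE in edgeR (-1.27, adjusted p = 0.283) and counts thinned to the smallest library (-1.32, adjusted p = 0.0518), besides the fits with 1 library fewer. The cause was not tested. With each library left out in turn, 2 to 4 of the 10 members, 11 to 37 genes of the 7 other lists (25 with all libraries) and 794 to 2575 of all genes (1901 with all libraries) passed. The counts of all genes were 892, 794 and 890 without mice 1, 2 and 3 at day 5, and 2472, 1045 and 2575 without them at day 7. Those of the other lists were 13, 13 and 11 without day 5 libraries and 37, 19 and 27 without day 7 libraries. With the mouse as a replicate block, which pairs the days, 2339 genes passed (1322 higher and 1017 lower), with 3 members and 31 genes of the other lists. Among the 39 named genes the block changed the call of *Mafk* and of no other. Scaling by library totals alone turned the split of all calls from 1140 higher and 761 lower to 950 and 1008 (60.0% and 48.5% higher) and moved the median log2 fold change of all genes by -0.09. No call of a member changed with the scaling. Of single lists, the detoxification list had 5 genes past the threshold by library totals (3 as reported). The thioredoxin list had 2 with a mean count of at least 10, DESeq2 or limma voom and 1 with thinned counts (4 as reported). The haem and iron list had 2 by library totals, without a filter or with limma voom and 0 with thinned counts (1 as reported). At 1918198 counts in the smallest library, *Hmox1* at day 5 rested on 29 to 41 counts per library, and changes of genes at a few CPM are poorly resolved.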
